A study of Homo sapiens with 12 samples.

Results

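Retinoic acid signalling was described through 9 genes: the retinoic acid carriers CRABP1 and CRABP2, the receptors RARA, RARB, RARG, RXRA and RXRB, and the retinoic acid hydroxylases CYP26A1 and CYP26B1. They were taken by symbol from a table of 85298 gene identifiers, and 8 of the 9 were among the 26366 genes with enough counts to be tested. The genes were chosen by their measured values in these same libraries, read by replicate number and by group. Levels over the replicate numbers are therefore given as a description, with no test, and the tests between groups are read with that choice in mind. CRABP2 had the widest range among them: its level was 4.91-fold lower in the 3 libraries numbered 4 than in the other 9, in all 3 groups alike. Between groups, CYP26A1 was higher with the hairpin shRNA-B than with shRNA-D. CRABP2 and RARG were lower with shRNA-B than with the scramble control once libraries of the same number were compared with each other.

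Retinoic acid is the active acid form of vitamin A. It enters the cytoplasm or is made there from retinaldehyde, is carried by CRABP proteins, and acts on nuclear heterodimers of a retinoic acid receptor (RAR) and a retinoid X receptor (RXR), which sit on paired hexamers in DNA and exchange corepressors for coactivators when the ligand binds. CRABP2 is known for passing retinoic acid to the receptors in the nucleus, and CYP26A1 and RARB are textbook target genes whose induction by retinoic acid gives the pathway its feedback.

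The libraries were poly(A) RNA from HEK 293T, a human embryonic kidney line that carries the SV40 large T antigen. All cells were collected 72 h after transduction with a lentivirus that expressed a short hairpin: the scramble control, or shRNA-B or shRNA-D against SIDT2, a lysosomal membrane protein. Each of these 3 groups had 4 libraries, numbered 1 to 4, and no untransduced group was analysed here. The series was set up to find transcripts that depend on the delivery of RNA to lysosomes by SIDT2. The 4 libraries of a group are called biological replicates without word on what separated them, so the tests compare groups with a spread between libraries that may be technical.

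SIDT2 itself stood at 20.1 ± 1.42 CPM (counts per 1000000 counted reads; SD, n = 4) with the scramble hairpin, 6.85 ± 1.04 with shRNA-B and 6.95 ± 1.0 with shRNA-D. It fell by 1.55 ± 0.14 (SE) on the log2 scale with shRNA-B and by 1.53 ± 0.14 with shRNA-D (adjusted p = 0.000146 and 0.000515, edgeR quasi-likelihood test, Benjamini-Hochberg adjustment). A gene is called here where its adjusted p was under 0.05. Library totals lay between 68737402 and 102644699 estimated counts, and mitochondrial transcripts took 5.65% to 7.34% of them. Of 8 marker genes of the line, 7 had a mean of at least 1 CPM and LHX1 had 0.752 CPM. The summed level of 5 fibroblast markers, of which COL1A1 alone reached 1 CPM, was 10.2 to 11.4 CPM in the libraries numbered 4 and 11.8 to 18.5 CPM in the others. Marker sums reached at most 0.474 CPM for endothelium, 0.295 CPM for hepatocytes and 0.0584 CPM for keratinocytes. Libraries of the same number deviated together, so a fit with the number as a block is given beside the fit of group alone wherever it changes a call.

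The promoters of 3 of the genes are shown because they differ in a motif. They are the 250 bases before an annotated start from RefSeq on GRCh38.p14, and all 9 genes matched an entry there. Capitals mark a DR5 element, a pair of hexamers in the same orientation with 5 letters between them, each being AGGTCA or the variant AGTTCA or the variant GGGTCA or the variant GGTTCA, searched on both strands. CYP26A1 holds it on the minus strand, so that its capitals read as the reverse complement.

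RARB, chr3:25428013-25428262, plus strand: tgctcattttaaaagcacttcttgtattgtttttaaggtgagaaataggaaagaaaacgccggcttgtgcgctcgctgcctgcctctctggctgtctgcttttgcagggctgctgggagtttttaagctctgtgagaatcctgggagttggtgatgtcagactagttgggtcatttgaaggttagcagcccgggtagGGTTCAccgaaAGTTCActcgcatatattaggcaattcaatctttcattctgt
CYP26A1, chr10:93073643-93073892, plus strand: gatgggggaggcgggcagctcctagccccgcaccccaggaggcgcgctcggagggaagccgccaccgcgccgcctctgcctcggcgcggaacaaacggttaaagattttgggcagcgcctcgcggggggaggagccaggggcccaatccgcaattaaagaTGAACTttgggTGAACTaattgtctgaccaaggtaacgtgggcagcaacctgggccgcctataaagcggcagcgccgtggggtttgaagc
CRABP2, chr1:156705785-156706034, minus strand: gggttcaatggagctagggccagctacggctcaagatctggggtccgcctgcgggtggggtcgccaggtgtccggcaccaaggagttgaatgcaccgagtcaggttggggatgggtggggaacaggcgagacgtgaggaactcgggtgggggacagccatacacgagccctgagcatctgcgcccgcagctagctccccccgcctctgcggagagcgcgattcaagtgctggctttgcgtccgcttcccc

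The element of RARB, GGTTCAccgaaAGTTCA, lay 53 to 37 bases before the start, and that of CYP26A1, TGAACTttgggTGAACT, lay 90 to 74 bases before it. RARB had 4 annotated promoters and CYP26A1 had 2, and 1 of each held the element. Counts per gene do not separate these promoters. Such an element was found in 26 of 35116 promoters of this length (0.074%), which belong to 24 of 27305 genes (0.0879%), and 2 of these 24 genes were CYP26A1 and RARB. Both were known beforehand as target genes of retinoic acid, so their share is a description and not a result about the 9 genes. The CRABP2 window held no such pair, nor did those of the other 6 genes. With 1 letter between the hexamers (DR1) the pair occurred in 34 promoters (0.0968%), and with 2 letters (DR2) in 11 (0.0313%), none of them of the 9 genes. Of the wider list of 66 genes described further on, 52 had an entry and 0 held any of these pairs. A missing match says only that these letters were not in this window.

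Of the carriers, CRABP1 (ENSG00000166426) was listed at 0 in all 12 libraries, which allows up to 0.0292 to 0.0436 CPM per library by counting error (3 counts of each total). CRABP2 (ENSG00000143320) was measured at 795 to 5275 estimated counts per library. With the scramble hairpin it had 45.3, 56.4, 51.1 and 11.2 CPM in replicates 1 to 4. With shRNA-B it had 35.4, 47.7, 40.2 and 7.96 CPM, and with shRNA-D 47.8, 59.5, 52.0 and 10.4 CPM. In each group the library numbered 4 was far below the other 3, and the highest library numbered 4 (11.2 CPM) was well under the lowest of the others (35.4 CPM). In bulk RNA of this kind, fewer expressing cells and less RNA per cell cannot be told apart.

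**Figure D1:**
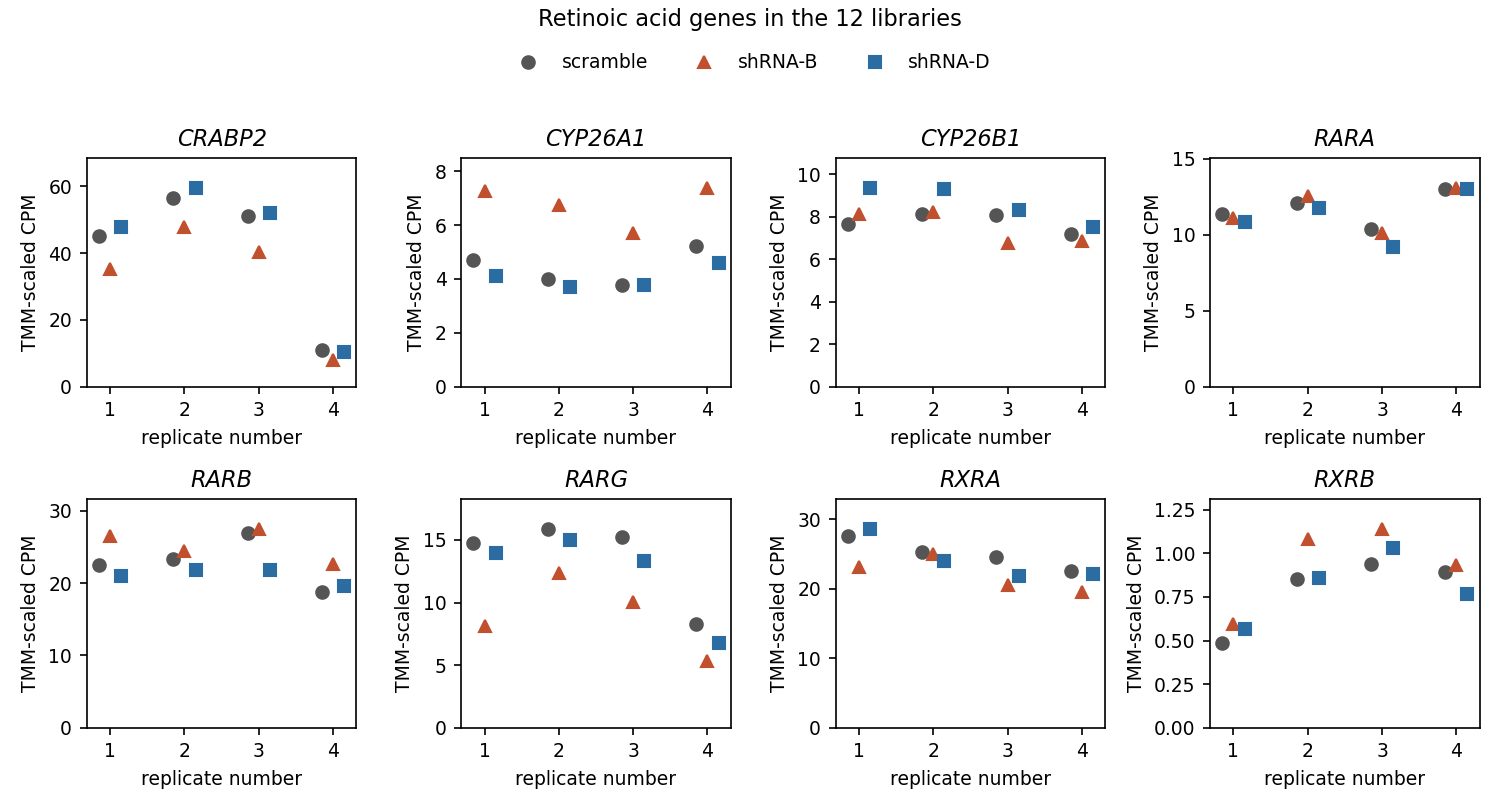
Level of each of the 8 detected retinoic acid genes (vertical axes, TMM-scaled CPM from 0) by replicate number (horizontal axes), with 1 point per library, circles for scramble, triangles for shRNA-B and squares for shRNA-D. The 3 points numbered 4 of CRABP2 lie between 7.96 and 11.2 CPM, below all others, and the 4 triangles of CYP26A1 lie above the circles.

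By number, the means of CRABP2 were 42.8 ± 6.58 CPM (SD, n = 3), 54.6 ± 6.10, 47.8 ± 6.55 and 9.85 ± 1.67 for numbers 1 to 4. The other numbers exceeded number 4 by 4.57-fold in the scramble group, 5.17-fold with shRNA-B and 5.09-fold with shRNA-D. Complete separation of the libraries numbered 4 below all others was not rare, since 6.88% of all tested genes had it. The size was less common: of 12084 tested genes that averaged 5 CPM or more, 11 including CRABP2 had a log2 ratio of number 4 to the rest of -2.30 or lower. The median ratio of those genes was -0.05, and 5% to 95% of them lay between -0.52 and 0.37. The fibroblast marker sum was lowest in the same 3 libraries, and its part in the CRABP2 level was not tested. That sum was nearly all COL1A1, with a mean of 13.7 CPM beside 0.109 to 0.374 CPM for the other fibroblast markers.

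**Figure D2:**
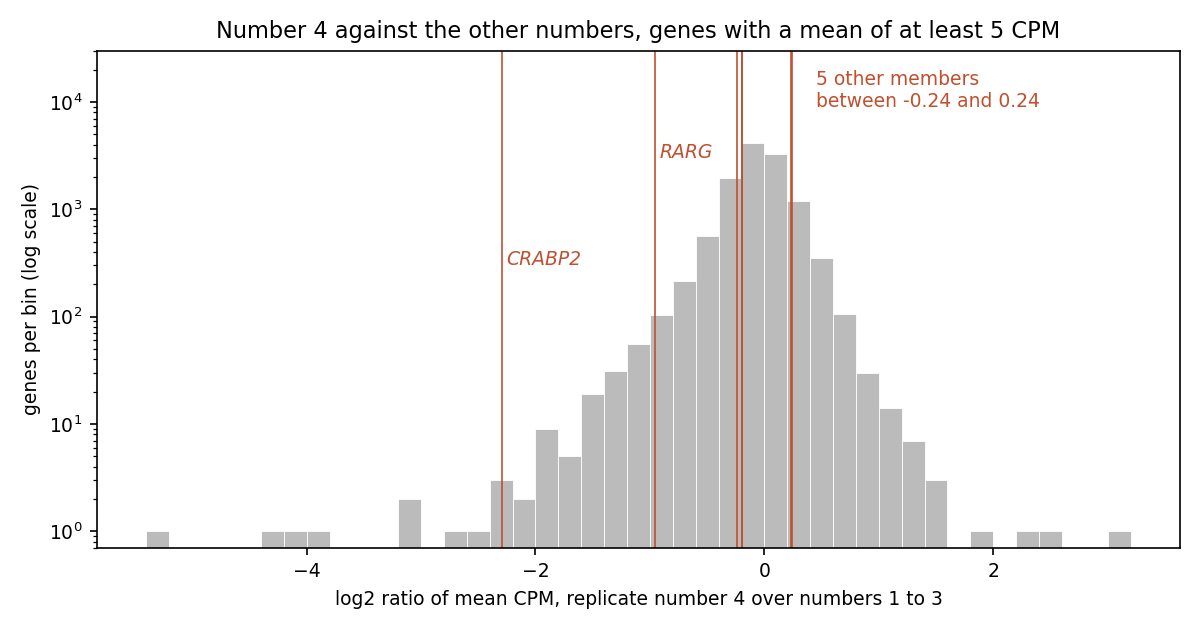
Distribution over 12084 genes of the log2 ratio of mean CPM in the 3 libraries numbered 4 to the mean in the other 9 (horizontal axis, bins of 0.2; vertical axis, genes per bin on a log scale), with lines for the retinoic acid genes of at least 5 CPM. CRABP2 at -2.30 lies in the sparse lower tail, RARG at -0.96 nearer the body, and 5 others lie between -0.24 and 0.24.

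The genes whose levels followed CRABP2 most closely over the 12 libraries, among 11476 with a symbol and the same minimum level, included KRT8, COL5A1, PPP2R2C and HES1. KRT8, a keratin of simple epithelia, had a Pearson r of 0.994 with CRABP2 on log2 CPM and was 4.96-fold lower in number 4. COL5A1, a fibrillar collagen chain, had an r of 0.992 and was 2.37-fold lower. PPP2R2C, a regulatory subunit of protein phosphatase PP2A, had an r of 0.989 and was 3.78-fold lower. HES1, a transcriptional repressor in the Notch pathway, had an r of 0.984 and was 2.12-fold lower. The most opposite genes were the antisense RNA NUTM2B-AS1 (r of -0.992), whose reads could be mixed with those of overlapping genes where counting ignores strand, and ISL1, a LIM homeodomain factor (r of -0.983). All these values rest largely on the gap between number 4 and the rest. Over the 9 libraries numbered 1 to 3, r with CRABP2 was 0.812 for KRT8, 0.854 for COL5A1, 0.898 for PPP2R2C, 0.563 for HES1, -0.898 for NUTM2B-AS1 and -0.489 for ISL1. These are descriptions of libraries that share numbers and hairpins, and no test was made of them.

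Against this range the hairpin groups of CRABP2 lay close together, at 41.0 ± 20.4 CPM (SD, n = 4) for scramble, 32.8 ± 17.3 for shRNA-B and 42.4 ± 21.9 for shRNA-D. The fit of group alone gave a log2 fold change of -0.32 ± 0.60 (SE) for shRNA-B (adjusted p = 0.986, edgeR quasi-likelihood test, Benjamini-Hochberg adjustment), with a 95% interval of -1.63 to 0.99. Within each number, shRNA-B was below scramble in 4 of 4 pairs. With the replicate block CRABP2 fell by 0.35 ± 0.05 on the log2 scale with shRNA-B (edgeR adjusted p = 0.00102), and by 0.31 without the libraries numbered 4 (adjusted p = 0.0166). With shRNA-D the blocked change was 0.02 ± 0.05 (edgeR adjusted p = 0.894), with an interval of -0.09 to 0.14. The difference itself, shRNA-D minus shRNA-B, was 0.38 ± 0.05 with the block (edgeR adjusted p = 0.000603) and 0.37 ± 0.60 without it (adjusted p = 0.94). For the mean of both hairpins the blocked value was -0.17 ± 0.05 (edgeR adjusted p = 0.0584), and leaving out shRNA-B replicate 2 brought that adjusted p to 0.0306. CRABP2 was thus called for shRNA-B in the fit within numbers and not in the fit of group alone.

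Among the receptors, RARG (ENSG00000172819), best known from skin and cartilage, had 14.8, 15.9, 15.3 and 8.26 CPM with the scramble hairpin. With shRNA-B it had 8.17, 12.4, 10.0 and 5.34 CPM, and with shRNA-D 14.0, 15.0, 13.3 and 6.76 CPM. In every group the library numbered 4 was the lowest, and in every number shRNA-B was the lowest of the 3 groups, while the ranges of the groups overlapped. Number 4 was 1.94-fold below the rest, and 144 of the 12084 genes were at or below its log2 ratio of -0.96. Group means were 13.5 ± 3.55 CPM (SD, n = 4), 8.97 ± 2.97 and 12.3 ± 3.73 in the order scramble, shRNA-B, shRNA-D.

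RARG under shRNA-B gave a log2 fold change of -0.60 ± 0.29 (SE) in the fit of group alone (adjusted p = 0.685, edgeR quasi-likelihood test, Benjamini-Hochberg adjustment). With the replicate block it fell by 0.61 ± 0.08 on the log2 scale (edgeR adjusted p = 0.000502). The shRNA-D value was -0.16 ± 0.08 with the block (edgeR adjusted p = 0.392), with an interval of -0.34 to 0.02. The difference of shRNA-D minus shRNA-B was 0.45 ± 0.08 with the block (edgeR adjusted p = 0.00376) and 0.45 ± 0.29 without it (adjusted p = 0.729). For the mean of both hairpins RARG fell by 0.39 ± 0.07 with the block (edgeR adjusted p = 0.00678), and the call was lost without scramble replicate 1 (adjusted p = 0.0613) and without all libraries numbered 4 (adjusted p = 0.0571). Without the block that value had an adjusted p of 1. Of the 7 other detected genes, RARG followed CRABP2 most closely, with an r of 0.909 over 12 libraries and 0.885 over the 9 numbered 1 to 3.

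RARB (ENSG00000077092), the receptor with the DR5 element in 1 of its 4 promoters, had 22.6, 23.3, 27.0 and 18.8 CPM with scramble. With shRNA-B it had 26.6, 24.4, 27.5 and 22.6 CPM, and with shRNA-D 20.9, 21.8, 21.8 and 19.6 CPM. All 4 shRNA-B libraries were above all 4 shRNA-D libraries, as in 3.50% of tested genes, and both groups overlapped the scramble range. The difference of shRNA-D minus shRNA-B was -0.27 ± 0.11 (SE) on the log2 scale in the fit of group alone (adjusted p = 0.463, edgeR quasi-likelihood test, Benjamini-Hochberg adjustment) and -0.26 ± 0.06 with the block (adjusted p = 0.0160). That call was lost in 5 of 12 fits that left out a library, namely shRNA-B replicate 1, 3 or 4 or shRNA-D replicate 1 or 3 (adjusted p up to 0.104), and without all libraries numbered 1 (adjusted p = 0.207). Against scramble the blocked values were 0.15 ± 0.06 for shRNA-B (edgeR adjusted p = 0.186) and -0.12 ± 0.06 for shRNA-D (adjusted p = 0.432).

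RARA (ENSG00000131759), the most widely expressed receptor of the family, had 11.3, 12.1, 10.4 and 13.0 CPM with scramble. It had 11.1, 12.6, 10.1 and 13.1 CPM with shRNA-B, and 10.8, 11.7, 9.17 and 13.0 CPM with shRNA-D. Here the level varied with the number, and the hairpins lay close together within each number. The libraries numbered 4, at 13.0 ± 0.029 CPM (SD, n = 3), were above all others, as in 6.33% of tested genes. Those numbered 3 were lowest in each group. Its log2 fold change was 0.00 for shRNA-B and -0.07 for shRNA-D in the fit of group alone, with intervals of -0.29 to 0.29 and -0.35 to 0.22.

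RXRA (ENSG00000186350), the common heterodimer partner, had 25.0 ± 2.12 CPM (SD, n = 4) with scramble, 22.0 ± 2.48 under shRNA-B and 24.1 ± 3.12 under shRNA-D, within 19.5 to 28.6 CPM over all libraries. Its shRNA-B value was -0.18 ± 0.06 (SE) on the log2 scale with the block (edgeR adjusted p = 0.0942). RXRB (ENSG00000204231) had 0.793 ± 0.208, 0.936 ± 0.244 and 0.805 ± 0.195 CPM from 49.1 to 94.8 estimated counts per library, and no contrast called it. RXRB lies in the major histocompatibility complex, of which the human assembly holds alternate copies with identifiers of their own. Since 24855 identifiers of the table had no symbol, reads of RXRB may sit under others, and this value is not read as the level of the gene.

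Of the enzymes of breakdown, CYP26A1 (ENSG00000095596), which hydroxylates retinoic acid for removal and carries the other DR5 element, had 4.69, 4.01, 3.77 and 5.22 CPM with scramble. With shRNA-B it had 7.24, 6.76, 5.71 and 7.37 CPM, and with shRNA-D 4.10, 3.70, 3.76 and 4.58 CPM. All 4 shRNA-B libraries were above every library of both other groups, while shRNA-D and scramble overlapped. A level above all scramble libraries in all 4 shRNA-B libraries occurred in 2.29% of tested genes, and a level above all shRNA-D libraries in 3.50%. Unlike CRABP2, CYP26A1 was not low in number 4, whose libraries were the highest of the scramble, shRNA-B and shRNA-D groups.

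The group means of CYP26A1 were 4.42 ± 0.657 CPM (SD, n = 4), 6.77 ± 0.756 and 4.03 ± 0.404. For shRNA-B the log2 fold change was 0.61 ± 0.15 (SE) in the fit of group alone, which missed the threshold (adjusted p = 0.0902, edgeR quasi-likelihood test, Benjamini-Hochberg adjustment). With the replicate block CYP26A1 rose by 0.62 ± 0.08 (edgeR adjusted p = 0.000328), and DESeq2 without a block also called it (adjusted p = 0.00151). For shRNA-D the value was -0.13 ± 0.15 (edgeR adjusted p = 1), with an interval of -0.46 to 0.19. The difference of shRNA-D minus shRNA-B passed in both fits, at -0.75 ± 0.15 without the block (edgeR adjusted p = 0.0341) and -0.75 ± 0.08 with it (adjusted p = 9.69e-05). Without the block that call was fragile: it was lost in 9 of 12 fits that left out a library, all but those without scramble replicate 3, scramble replicate 4 or shRNA-B replicate 3, with adjusted p up to 0.160. With the block it held in all 12 such fits, with adjusted p up to 0.00117. The same difference for SIDT2 was 0.02 ± 0.14 (SE), with an interval of -0.28 to 0.32.

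CYP26B1 (ENSG00000003137), the related hydroxylase, had 7.76 ± 0.424 CPM (SD, n = 4) with scramble, 7.49 ± 0.786 under shRNA-B and 8.61 ± 0.881 under shRNA-D. It was above scramble in 4 of 4 pairs with shRNA-D, with a blocked log2 value of 0.15 ± 0.07 (SE; edgeR adjusted p = 0.378). The difference of shRNA-D minus shRNA-B was 0.20 ± 0.07 with the block (edgeR adjusted p = 0.0968). The hydroxylases thus did not share a pattern: CYP26A1 was high with shRNA-B, and CYP26B1 was not called in any contrast. Over the 9 libraries numbered 1 to 3, r with CRABP2 was -0.808 for CYP26A1 and 0.526 for CYP26B1, given as a description.

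**Figure D3:**
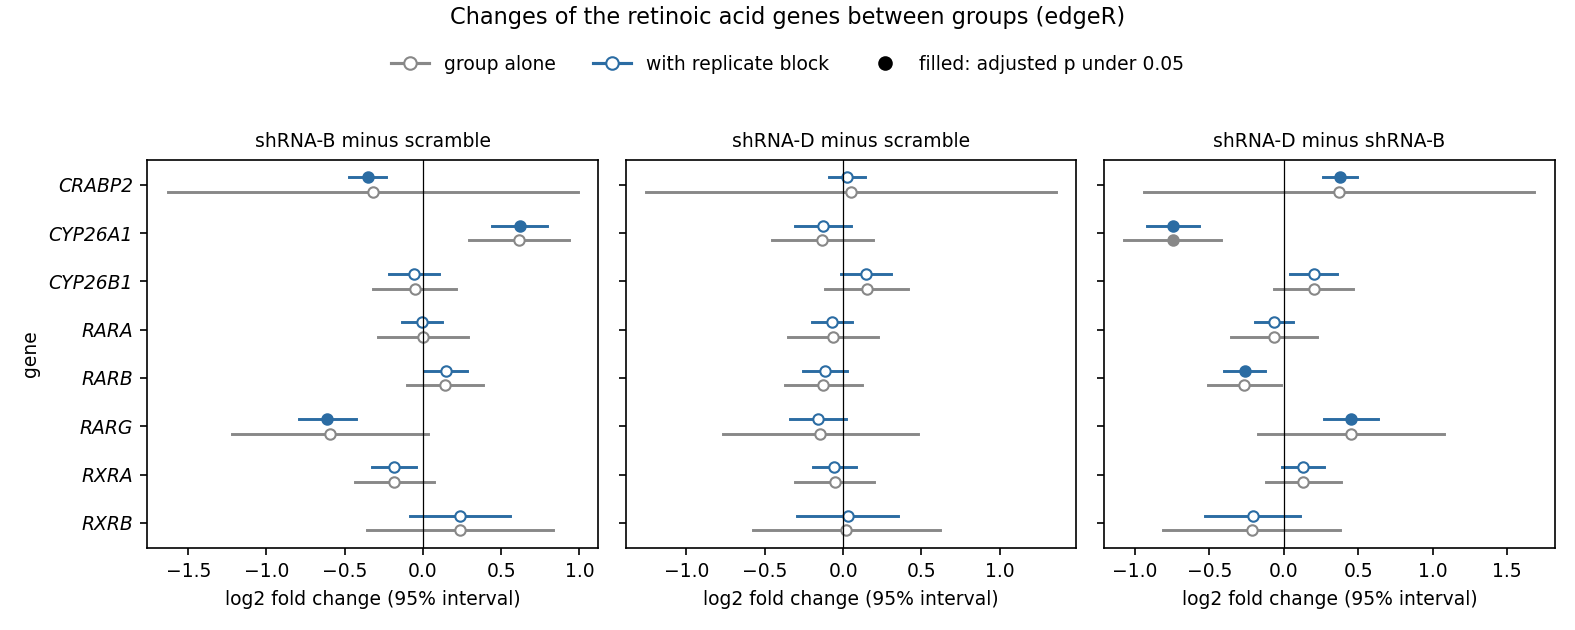
Log2 fold change with its 95% interval (horizontal axes) of the 8 tested retinoic acid genes (vertical axis) for each hairpin against scramble and for shRNA-D against shRNA-B, in grey for the fit of group alone and in blue with the replicate block, filled where the adjusted p was under 0.05. The block narrows the CRABP2 interval from -1.63 to 0.99 down to -0.47 to -0.24 for shRNA-B, and no point is filled for shRNA-D against scramble.

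Counted together, edgeR on group alone called 0 of the 8 tested genes for shRNA-B, and 0.876% of all tested genes. In that fit 1 of 8 had an unadjusted p under 0.05, as had 2044 of all 26366 tested genes. DESeq2 called 1 of 8, CYP26A1, beside 663 of all 26366. With the block 3 of 8 were called, CYP26A1 higher and CRABP2 and RARG lower, where 9.58% of all genes were. The genes were chosen by their levels by number and by group in these same libraries. In this and the other contrasts, their share beside that of all genes is therefore a description and cannot show enrichment. For shRNA-D edgeR called 0 of 8 without the block (0.269% of all genes) and 0 of 8 with it (3.30%), with 0 at an unadjusted p under 0.05 in either fit and 0 by DESeq2. For the mean of both hairpins edgeR called 0 of 8 without the block (0.231%), with 0 at an unadjusted p under 0.05 and 0 by DESeq2, and 1 of 8, RARG, with the block (5.07%). Between the hairpins 1 of 8 was called without the block (0.952%), CYP26A1, and 4 of 8 with it (12.9%). Of those 4, CRABP2 and RARG were lower with shRNA-B and CYP26A1 and RARB higher. All contrasts against scramble share the same 4 control libraries.

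CYP26A1 and RARB, the pair with a DR5 element, both had their highest group mean with shRNA-B. Of the other genes with this element, 7 were tested, and their blocked shRNA-B values had a median of 0.00, with 4 of 7 above 0. ATXN1L, a homologue of ataxin-1, rose by 0.49 (edgeR adjusted p = 0.000823) and was the single call among these 7, where 9.58% of all tested genes were called. Between the hairpins 3 of the 7 were called with the block, where 12.9% of all tested genes were: ATXN1L at -0.39 and PANK2, a pantothenate kinase, at -0.16, both lower with shRNA-D, and PRSS27, a serine protease, at 0.50. Values of genes with the element thus lay on both sides of 0.

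A wider list of 66 genes of retinoid uptake, synthesis, receptor partners, cofactors and responsive genes was read from the same fits, and 55 of them were tested. In the edgeR fit of group alone 0 of 55 were called in any contrast. An unadjusted p under 0.05 was found for 8 with shRNA-B, 3 with shRNA-D, 6 for the mean and 11 between hairpins. Over all 26366 tested genes these counts were 2044, 1228, 1442 and 2465. DESeq2 called 5, 0, 1 and 3 of the 55, beside 663, 261, 341 and 815 of all 26366 tested genes. With the block, 3 were higher and 6 lower for shRNA-B (9.58% of all tested genes were called), and 0 higher and 2 lower for shRNA-D (3.30%), a share near that of all genes. For the mean 1 was higher and 5 lower (5.07%), and between the hairpins 8 were higher with shRNA-D and 5 lower (12.9%). The blocked median log2 change of the list was -0.05 for shRNA-B and -0.05 for shRNA-D, beside 0.00 and -0.01 over all tested genes.

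Among the genes of retinol entry, the retinol receptor STRA6, with means of 0.0931 to 0.452 CPM by number, had a log2 value of 0.94 ± 0.26 (SE) between the hairpins, shRNA-D being higher (edgeR with block, adjusted p = 0.0318). Of the retinaldehyde enzymes, RDH11, a retinal reductase, rose by 0.33 ± 0.06 with shRNA-B (edgeR with block, adjusted p = 0.00199), from 90.4 ± 4.93 to 114 ± 6.27 CPM (SD, n = 4). Its relative RDH14 fell by 0.37 ± 0.06 with shRNA-D (edgeR with block, adjusted p = 0.00344), from 23.9 ± 3.15 to 18.5 ± 2.60 CPM. The 4 retinaldehyde dehydrogenases, which make retinoic acid, had 0 calls in any contrast by either edgeR fit or by DESeq2. Of their 16 tests in 4 contrasts, 0 had an unadjusted p under 0.05 without the block and 4 with it. With the block 6005, 4057, 4791 and 6718 of all 26366 tested genes had such a p for shRNA-B, shRNA-D, the mean and between hairpins. These contrasts share libraries. The dehydrogenase with the highest mean CPM, ALDH1A2, stood at 106 ± 9.60, 117 ± 12.8 and 106 ± 11.3 CPM in the 3 groups.

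**Figure D4:**
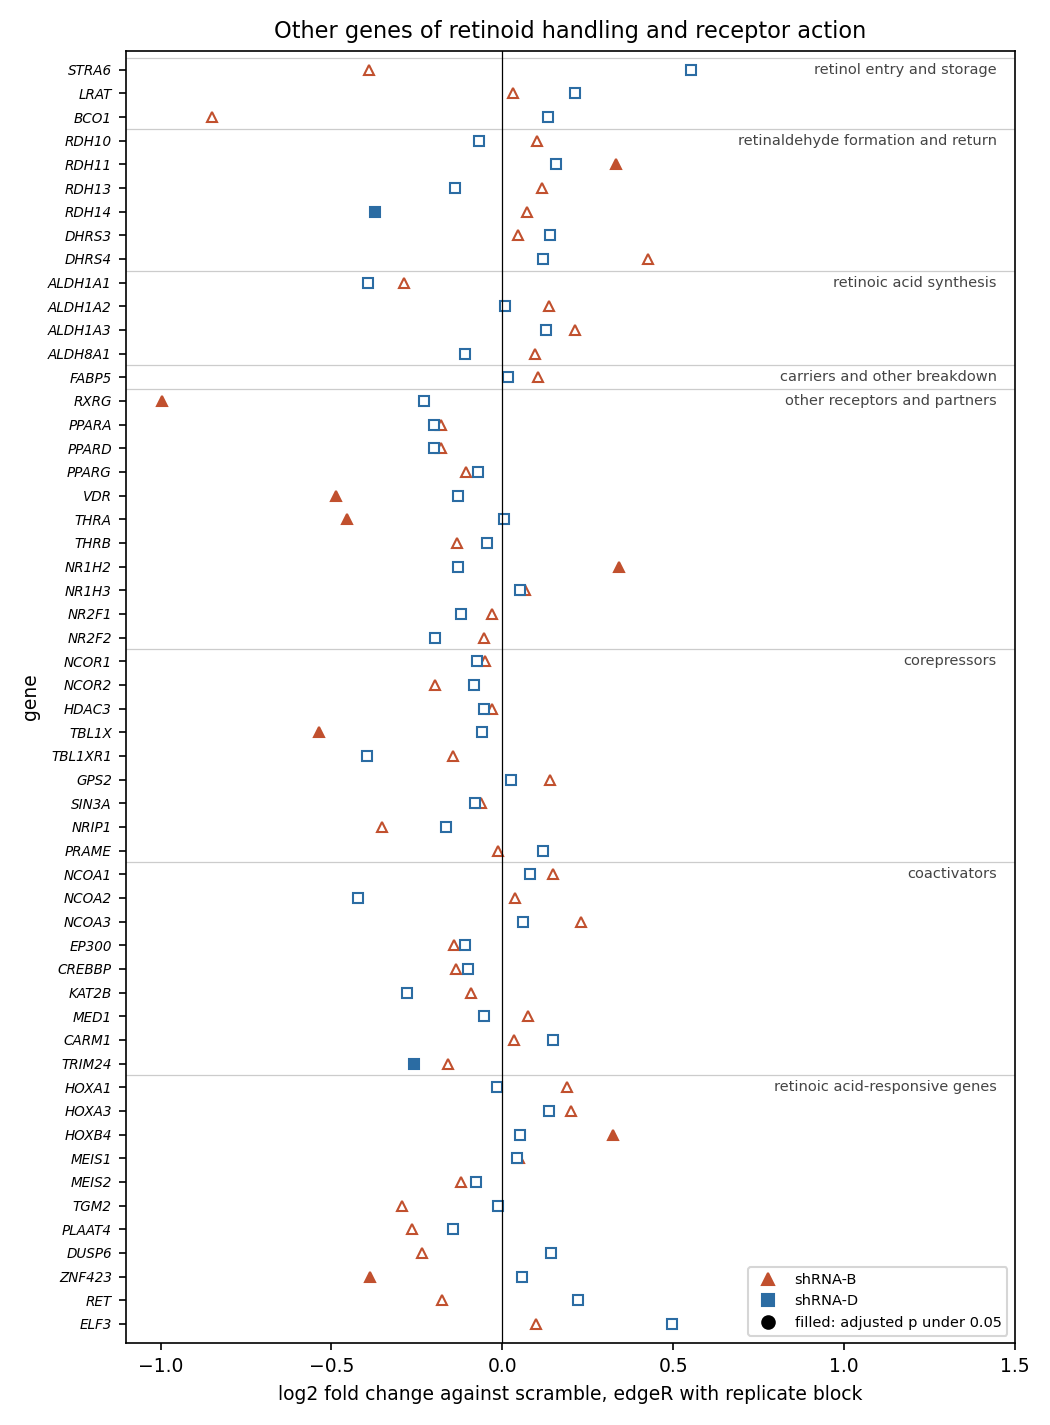
Log2 fold change against scramble (horizontal axis, edgeR with the replicate block) of 54 tested genes of the wider list (vertical axis), grouped by role, with triangles for shRNA-B and squares for shRNA-D, filled where the adjusted p was under 0.05. For shRNA-B 8 of the points shown are filled, 3 above 0 and 5 below, and for shRNA-D 2 are filled, RDH14 and TRIM24, both below 0.

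The other nuclear receptors, 11 of them tested, held 4 of the 9 calls with shRNA-B. In this blocked fit 9.58% of all tested genes were called. RXRG, the RXR of muscle and brain, fell by 0.99 ± 0.15 (SE, log2; edgeR with block, adjusted p = 0.000781), from 1.44 ± 0.377 CPM (SD, n = 4) to 0.711 ± 0.147. The vitamin D receptor VDR fell by 0.49 ± 0.09 (edgeR with block, adjusted p = 0.00325), from 7.85 ± 0.531 to 5.63 ± 0.894 CPM. The thyroid hormone receptor THRA fell by 0.45 ± 0.07 (edgeR with block, adjusted p = 0.00128), from 25.1 ± 0.914 to 18.5 ± 2.93 CPM. Each of these 3 receptors was below scramble in 4 of 4 pairs. NR1H2, the liver X receptor beta, rose by 0.34 ± 0.06 (edgeR with block, adjusted p = 0.00253). Between hairpins RXRG, VDR and THRA were higher under shRNA-D, by 0.77, 0.36 and 0.46 on the log2 scale, and NR1H2 differed by -0.47, all called with the block. PPARD, a fatty acid sensor, was called for the mean of both hairpins alone, at -0.19 ± 0.05 (edgeR with block, adjusted p = 0.0366).

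Of 9 corepressor genes, TBL1X, a subunit of the NCOR complex, was the single call with shRNA-B, a share near the 9.58% of all tested genes. TBL1X fell by 0.54 ± 0.07 (SE, log2, edgeR with block, adjusted p = 0.000318), from 105 ± 15.4 to 72.7 ± 16.1 CPM (SD, n = 4). NCOR1 itself, at 199 ± 13.2 CPM with scramble and 192 ± 12.5 with shRNA-B, was not called. Of 9 coactivators, TRIM24 fell by 0.26 ± 0.06 with shRNA-D (edgeR with block, adjusted p = 0.0428), and NCOA2 differed by -0.46 ± 0.13 between the hairpins, with shRNA-D lower (adjusted p = 0.0431). Of 16 responsive genes 11 were tested. HOXB4, a homeobox gene that retinoic acid induces in the hindbrain, rose by 0.32 ± 0.07 with shRNA-B (edgeR with block, adjusted p = 0.0119). ZNF423, a zinc finger protein that binds RAR and RXR, fell by 0.39 ± 0.10 with shRNA-B (edgeR with block, adjusted p = 0.0233). RET, a receptor tyrosine kinase, differed by 0.40 ± 0.08 between the hairpins, with shRNA-D higher (edgeR with block, adjusted p = 0.00520). For shRNA-B these were 2 calls, HOXB4 and ZNF423, of 11 tested responsive genes, where 9.58% of all tested genes were called.

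By replicate number, 11 of the 55 tested list genes had their 3 libraries numbered 4 below all others and 5 above all others, beside 6.88% and 6.33% of all tested genes. Among the 11, ALDH1A1, a retinaldehyde dehydrogenase, was 3.67-fold lower, STRA6 3.33-fold, TGM2, a transglutaminase induced by retinoic acid, 2.22-fold, and RET 2.04-fold. ALDH1A1 was low throughout, at 0.973, 0.238, 0.376 and 0.144 CPM in numbers 1 to 4. Its libraries numbered 1 were above all others, as in 5.56% of tested genes, so its ratio rests in part on number 1. Among the 5, RDH10, which oxidises retinol to retinaldehyde, stood at 47.7 ± 4.52 CPM (SD, n = 3) in number 4 and at 31.0, 28.9 and 28.2 CPM in numbers 1 to 3. LRAT, which stores retinol as esters, stood at 0.657 ± 0.0442 CPM in number 4 and at 0.280, 0.303 and 0.294 CPM in the others. The libraries numbered 4 thus differed from the rest in genes of several roles, in both directions, and what the number shares was not tested.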

How the data were processed

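Poly(A) RNA of 12 HEK 293T libraries was measured by sequencing. The authors deposited estimated counts per gene, with fractional values, in 1 table. The tools fastp and kallisto were used, per the submitters' processing notes, and their versions, the genome build and annotation were not given in the sources used here. Estimated counts can divide reads among transcripts of shared sequence. Groups and replicate numbers come from the library titles.

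The members, the wider list and the contrasts were chosen with earlier results of these data known. Besides the 9 members and SIDT2, the text names list genes called in any contrast, up to 3 more per role with the highest mean CPM, the 5 genes most like CRABP2 by Pearson r of log2 CPM (prior count 2) and the 2 least like it. Genes with a DR5 element and genes separated by number were named after their values were seen. Some genes that these rules took are not reported here.

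Estimated counts were rounded, scaled by TMM and filtered by filterByExpr. edgeR 4.0.16 (R 4.3.3, with limma 3.58.1) fitted group alone over 12 libraries with robust quasi-likelihood tests, and calls were made at an adjusted p (Benjamini-Hochberg) under 0.05. The fits were tested on simulated data. CPM values are TMM-scaled and not per length, so levels are not compared between genes.

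Alternatives were the replicate block, DESeq2 1.42.0, RLE scaling, no filter, fits on 2 groups and each library left out. Leaving out number 4 or number 1 was added after seeing the data. Same-number libraries of different groups correlated in their deviations from the group means with r from 0.140 to 0.619 in all 12 pairs, above the threshold of 0.1, against -0.365 to 0.280 for different numbers, so the numbers paired the libraries by the data. The labels do not say what libraries of a number have in common. The block lowered the common coefficient of variation from 25.0% to 12.1%. Every pair of libraries differed by more than counting noise (chi-square per degree of freedom from 25.9 to 147).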

Additional observations from a re-analysis of the deposited data

Results flagged for a closer look

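RARG in scramble replicate 4, at 8.26 CPM, lay apart from the other 3 scramble libraries: its gap to the nearest of them took up 0.859 of the group's whole range. It was the single library past Dixon's 95% critical value among 27 sets of 4 libraries examined, 1 per group and detected gene, SIDT2 included, and some gaps of this size arise by chance. Dixon's value served as a flag here and not as a test, since the genes were chosen by these same levels. RARG was lowest in number 4 in every group, so the flag repeats the pattern over numbers described above. The next widest gaps, none past Dixon's value, were those of SIDT2 in shRNA-D replicate 1 (0.819 of the range), RXRB in scramble replicate 1 (0.804), RARG in shRNA-D replicate 4 (0.792) and CRABP2 in the libraries numbered 4 of shRNA-D (0.762) and scramble (0.754). CYP26A1 responded unlike in the hairpins by the test of the difference itself, with a log2 value of -0.75 for shRNA-D minus shRNA-B (edgeR adjusted p = 0.0341 without the block).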

How the results depend on the processing

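The number of genes called over the whole table depended on the model. For shRNA-B it was 231 by edgeR on group alone, 2525 with the replicate block, 663 by DESeq2, 90 on the 2 groups alone, 98 without number 4, 94 without number 1 and 120 to 261 with a library left out. For shRNA-D it was 71, against 871 with the replicate block, 261 by DESeq2, 22 without number 4, 23 without number 1 and 32 to 76 with a library left out. For the mean of both hairpins it was 61, against 1337 with the block, 341 by DESeq2, 110 with no filter, 13 without number 4, 31 without number 1 and 34 to 91 with a library left out. For shRNA-D minus shRNA-B it was 251, against 3391 with the block, 815 by DESeq2, 105 without number 4, 77 without number 1 and 113 to 310 with a library left out. The wider list had 0 calls for the mean, 6 with the block and 1 by DESeq2.

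The values that changed sign were not called in either setting. RARA for shRNA-B turned to 0.000814 by DESeq2, 0.000637 with RLE scaling and 0.00402 without number 1. With a library left out, shRNA-B values ranged from -0.63 to 0.0084 for CRABP2, -0.10 to 0.0027 for CYP26B1 and -0.0599 to 0.0704 for RARA, and shRNA-D values from -0.24 to 0.40 for CRABP2, -0.127 to 0.0394 for RARA, -0.298 to 0.0795 for RARG, -0.134 to 0.0283 for RXRA and -0.13 to 0.17 for RXRB. CYP26A1 for shRNA-D minus shRNA-B lost its call with no filter (adjusted p = 0.0975, edgeR), without number 4 (0.0780) and without number 1 (0.309). The cause was not tested. Blocked fits without a library were run for CRABP2, CYP26A1, RARB and RARG. RXRB rests on 49.1 to 94.8 estimated counts per library and CRABP1 on 0, which limits what can be said of them.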
